A study of Mus musculus with 12 samples.

Results

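A set of 10 genes of muscle energy metabolism was followed through the RNA sequencing counts of 12 libraries. The genes form a list of names: the creatine kinases Ckm, Ckb and Ckmt2, the oxygen carrier Mb, the glycogen phosphorylase Pygm, the glycolytic enzymes Pfkm, Eno3 and Pgam2, the AMP deaminase Ampd1 and the pyruvate dehydrogenase kinase Pdk4. All 10 were among the 55416 genes of the count table, 52083 of which had a symbol, and 9 of them passed the filter on low counts. Ampd1 did not pass and was not tested. The cells were C2C12, an established line of mouse skeletal myoblasts whose cells fuse into myotubes when serum is withdrawn. There were 4 groups of 3 libraries: wild-type cells (WT) and cells labelled as Mapk14 knockout (KO), each held for 5 days in DMEM, either as growth medium (GM) containing 10% fetal bovine serum or as differentiation medium (DM) containing 2% horse serum. The labels call the 3 libraries of a group biological replicates and do not say whether the KO cells came from 1 clone or several. All 12 carry the same batch label.

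Contracting muscle spends ATP faster than mitochondria can replace it, and the proteins encoded by these genes are parts of its reserve. Creatine kinases move phosphate between ATP and phosphocreatine, with Ckm as the cytosolic muscle form, Ckb as the brain and embryonic form and Ckmt2 as the mitochondrial form of striated muscle. Pygm frees glucose phosphate from glycogen, Pfkm commits it to glycolysis, and Pgam2 and Eno3 are the muscle forms of late glycolytic enzymes. Myoglobin, encoded by Mb, stores oxygen, AMP deaminase removes AMP that builds up during work, and Pdk4 shuts pyruvate dehydrogenase so that fat replaces sugar as fuel. During muscle development the embryonic and housekeeping forms give way to the muscle forms.

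Promoter sequence was taken from a RefSeq table (build GRCm38.p6), which held windows for 9 of the 10 genes, 14 windows in all. The 250 bases before the start site are shown for 5 genes that carry the contrasts described below, in lower case, with matches to 3 motifs in capitals: CAGCTG, a MyoD-type E-box, CACCTG, another E-box (CAGGTG on the other strand), and a MEF2-type motif, CTA and TAG with any 4 bases between them. Both strands were searched and no position was counted for more than 1 motif. The windows are chr7:19410844-19411093 (plus strand) for Ckm, chr12:111672339-111672588 (minus) for Ckb, chr19:6384158-6384407 (plus) for Pygm, chr11:5803797-5804046 (minus) for Pgam2 and chr6:5496279-5496528 (minus) for Pdk4.
Ckm: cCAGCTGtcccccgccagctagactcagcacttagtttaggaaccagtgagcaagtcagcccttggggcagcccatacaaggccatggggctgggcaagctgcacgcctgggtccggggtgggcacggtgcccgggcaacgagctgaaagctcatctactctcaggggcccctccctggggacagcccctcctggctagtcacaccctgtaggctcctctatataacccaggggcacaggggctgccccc
Ckb: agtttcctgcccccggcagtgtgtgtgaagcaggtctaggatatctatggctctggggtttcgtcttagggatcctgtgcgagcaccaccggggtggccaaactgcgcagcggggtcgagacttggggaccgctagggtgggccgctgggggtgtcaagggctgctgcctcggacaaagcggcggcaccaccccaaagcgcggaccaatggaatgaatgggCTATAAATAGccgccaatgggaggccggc
Pygm: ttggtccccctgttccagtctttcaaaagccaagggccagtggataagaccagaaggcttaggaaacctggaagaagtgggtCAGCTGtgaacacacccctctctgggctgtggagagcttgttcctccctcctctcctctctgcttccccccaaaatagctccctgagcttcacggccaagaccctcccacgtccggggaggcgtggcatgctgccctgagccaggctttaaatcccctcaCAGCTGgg
Pgam2: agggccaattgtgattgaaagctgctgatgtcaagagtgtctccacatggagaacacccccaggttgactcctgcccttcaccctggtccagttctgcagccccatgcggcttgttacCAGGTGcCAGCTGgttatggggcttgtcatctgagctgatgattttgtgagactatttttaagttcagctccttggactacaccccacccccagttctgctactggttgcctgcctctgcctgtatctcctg
Pdk4: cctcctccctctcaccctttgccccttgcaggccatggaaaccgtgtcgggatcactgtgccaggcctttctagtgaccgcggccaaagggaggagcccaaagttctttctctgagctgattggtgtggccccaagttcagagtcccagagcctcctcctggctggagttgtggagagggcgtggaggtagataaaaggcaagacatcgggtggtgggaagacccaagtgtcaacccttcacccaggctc

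Within windows that also included the first 50 bases after the start, CAGCTG was found for 6 of the 9 genes with a window: Ckm, Ckmt2, Pygm, Eno3, Pgam2 and Mb. It was in 7 of their 14 windows, of which some overlap, and in 16.3% of all 32851 windows of that length in the table. In Pygm it stood at 2 places, starting 168 and 8 bases before the start site, in Pgam2 125 bases before it and in Ckm 249 bases before it. CACCTG was in windows of 3 genes (Ckmt2, Pfkm and Pgam2) and in 20.2% of all windows. The MEF2-type motif, in the 1 spelling searched, was found only for Ckb, 29 bases before the start, where it reads CTATAAATAG, and in 3.69% of all windows. Runs that end in TAA in place of TAG were not searched. The printed Pgam2 sequence holds such a run, ctatttttaa, left unmarked. The Pdk4 window held none of the 3. A match is a run of letters and not a site shown to be bound.

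Library totals ran from 8821669 to 11536396 counts. Levels are given as CPM, counts relative to the library size after TMM scaling, which evens out differences in composition, as mean ± SD of n = 3. Mapk14 RNA was not lower in the KO-labelled libraries in GM (134 ± 3.58 CPM against 124 ± 14, log2 fold change 0.11 ± 0.08 SE, adjusted p = 0.35) or in DM (-0.03 ± 0.08, adjusted p = 0.822), so genotype is named below by label only. The 10 skeletal muscle markers checked all had counts in every group, with a summed level of 7820 to 8109 CPM in WT DM, 3103 to 3531 in KO DM, 1688 to 2514 in WT GM and 306 to 585 in KO GM. This order is that of most of the fuel genes. Markers of other cell types were scarce: cardiac Nppa, Myl7 and Myl3, adipocyte Adipoq, Cfd, Cidec and Lep, leukocyte Ptprc and Adgre1 and neural Rbfox3, Snap25 and Sox10 had 0 counts in all libraries, and the highest summed level of such a list in any library was 20.9 CPM. Of the markers with counts, leukocyte Lyz2 was higher in KO DM than in WT DM (8.32 ± 1.23 against 1.94 ± 0.393 CPM), while adipocyte Fabp4 (0.639 ± 0.33 against 3.09 ± 0.0231) and cardiac Myh6 (0.29 ± 0.11 against 5.42 ± 0.467) were lower, each called. Their part in the results below was not tested. The third GM libraries stood apart from the other GM libraries over the tested genes with enough counts. Chi-square per degree of freedom, larger where 2 libraries differ more, was 14.6 and 9.66 between WT GM replicate 3 and replicates 1 and 2. It was 14.4 and 10.7 for KO GM replicate 3, and 3.52 and 6.32 between replicates 1 and 2 in WT GM and KO GM. WT GM replicate 3 held the highest level of its group for 8 of the 9 tested genes. KO GM replicate 3 did so for 6 of 9, as did KO DM replicate 1, so that count does not set it apart.

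All 9 tested genes rose from GM to DM in WT cells and 7 of them in KO-labelled cells, and in DM the KO-labelled cells had less of every tested gene but Pdk4. The test was edgeR's quasi-likelihood test over 13250 genes, with p adjusted by Benjamini-Hochberg over all of them, and a gene was called where adjusted p was below 0.05. Of all tested genes 33.2% were called in WT cells, 18.4% higher in DM and 14.8% lower. In KO-labelled cells 40.6% of all genes were called, 20.8% higher and 19.8% lower. Ckmt2 and Eno3 were the 2 members not called there. Between the genotype labels 5 of 9 were lower in KO-labelled cells in GM, where 20.7% of all genes were called and 10.6% called lower. The 5 became 4 in 6 of 17 alternative analyses, which ended the call of Pgam2. In DM 8 were lower and 1 higher, where 31% of all genes were called, 17.4% lower and 13.6% higher. The response to DM itself differed between the labels for 3 genes: it was more positive in KO-labelled cells for Pdk4 and less positive for Pfkm and Eno3. The call of Eno3 was lost in 13 of 22 alternative analyses. Of all genes 8.86% were called in this test, 3.61% more positive and 5.25% less positive, and the more positive share of these calls, 40.7%, became 57.8% when libraries were scaled by total counts alone. The median log2 fold changes of the 9 were 1.93 and 1.77 for DM in WT and KO-labelled cells and -1.05 and -1.60 for KO against WT in GM and DM, with medians over all genes of -0.01, -0.00, -0.00 and -0.02. In these bulk cultures fewer differentiated cells and less RNA of a gene per cell cannot be told apart. The 2 comparisons of DM with GM share no library with each other, but each shares libraries with the comparisons of genotype labels.

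**Figure D1:**
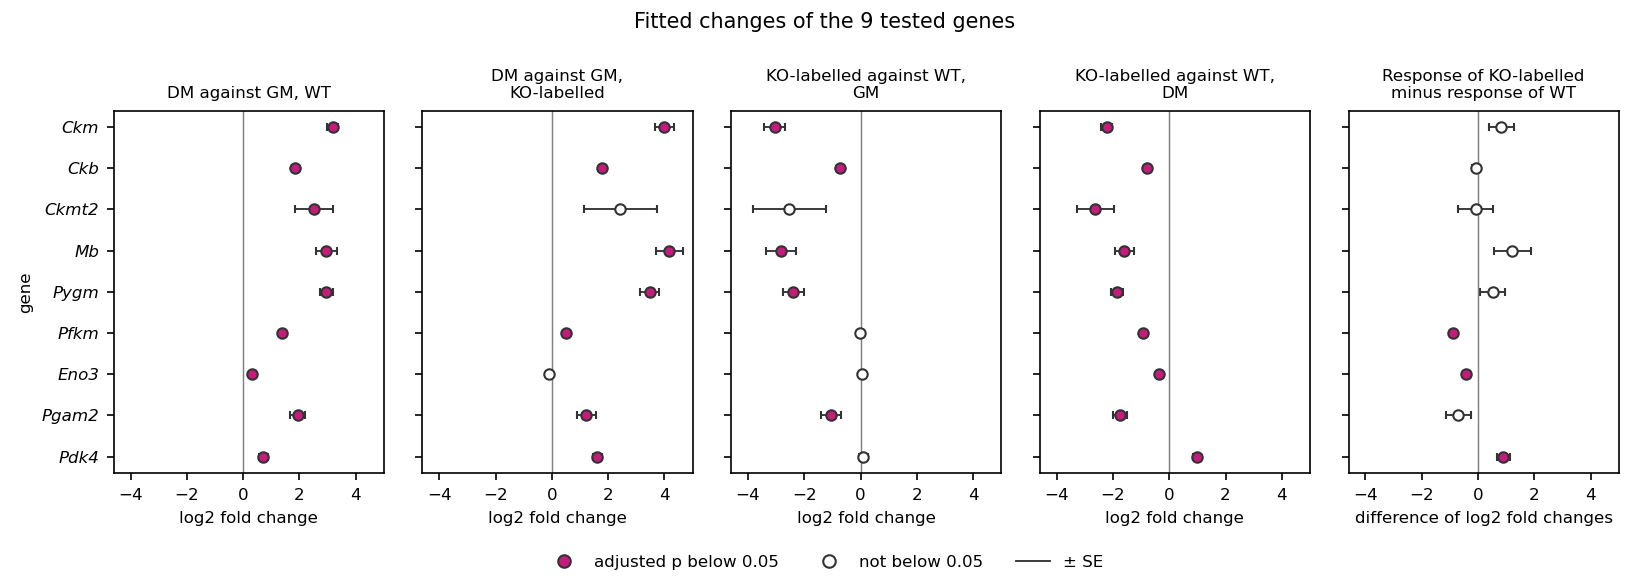
Fitted log2 fold changes (x axis) of the 9 tested genes (rows) in the 4 comparisons and, in the last panel, the difference of the responses to DM; bars are ± SE and filled points have adjusted p below 0.05. All 9 points lie to the right of 0 for WT DM against WT GM, and Pdk4 is the single point to the right of 0 for KO DM against WT DM. The Ckmt2 bar in the last panel (0.62) is shorter than that of its response in KO-labelled cells (1.3). It thus understates the uncertainty of that difference.

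Libraries of the groups compared did not overlap for 9 of 9 genes in WT DM against WT GM (44.3% of all tested genes), 8 of 9 in KO DM against KO GM (50.7%), 4 of 9 in KO GM against WT GM (32.3%) and 9 of 9 in KO DM against WT DM (47.5%). The levels in each library are plotted by gene.

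**Figure D2:**
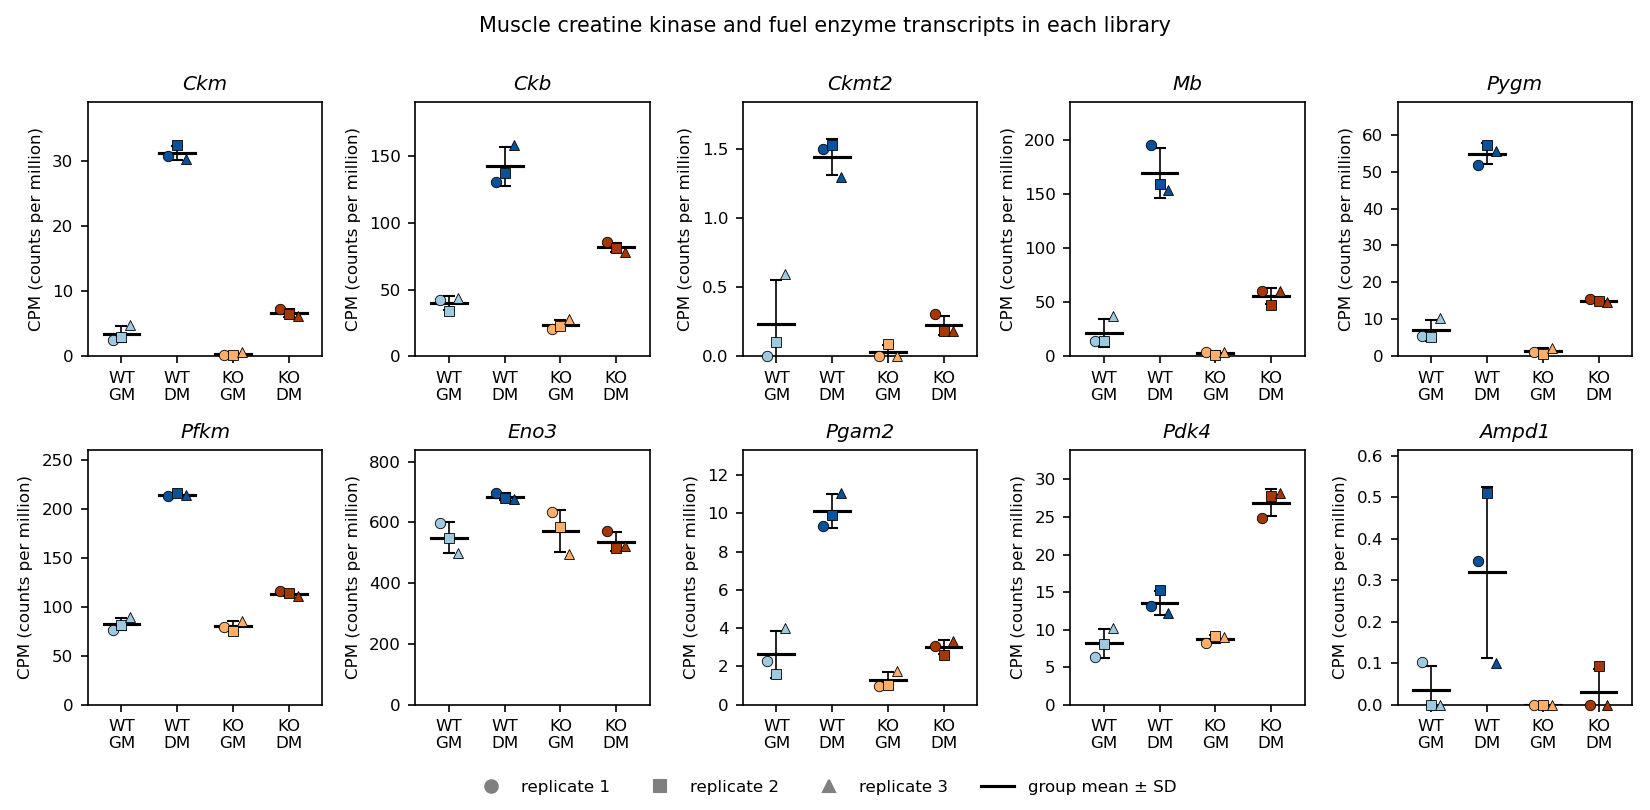
CPM of each gene (y axes, linear and starting at 0) in the 3 libraries of each group, with the group mean ± SD; the panel of Ampd1 rests on 0 to 5 counts per library. The WT DM mean is highest in every panel except that of Pdk4, where the KO DM libraries stand highest at 24.8 to 28.2 CPM. In the Ampd1 panel the WT DM and WT GM libraries overlap.

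Ckm, the cytosolic muscle creatine kinase, separated all 4 groups. It was at 30.8, 32.5 and 30.3 CPM in WT DM, 7.30, 6.54 and 6.13 in KO DM, 2.47, 3.01 and 4.79 in WT GM and 0.215, 0.26 and 0.709 in KO GM. No 2 groups overlapped, and the lowest group rested on 2, 3 and 8 counts. Ckm rose in DM by 3.18 ± 0.20 on the log2 scale in WT cells (adjusted p = 7.85e-11), or 9.05-fold, and by 4.0 ± 0.33 in KO-labelled cells (adjusted p = 2.34e-09), or 16.0-fold. Against WT it was lower in KO-labelled cells by -3.05 ± 0.37 in GM (adjusted p = 1.97e-06) and by -2.23 ± 0.19 in DM (adjusted p = 4.29e-09). The difference between the responses, 0.82 ± 0.44, was not called (adjusted p = 0.274). Without KO GM replicate 3 the rise in KO-labelled cells was 4.73, the difference in GM -3.78 and the difference between responses 1.56 (adjusted p = 0.0621). Without WT GM replicate 3 the last was 0.52.

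Ckb, the brain-type cytosolic enzyme that precedes Ckm in muscle development, was in these cells also highest in WT DM. Its libraries held 131, 138 and 159 CPM in WT DM, 85.5, 81.2 and 78.5 in KO DM, 42.6, 33.7 and 43.5 in WT GM and 20.8, 23.1 and 27.7 in KO GM. The order was that of Ckm and again without overlap, but the steps were smaller. Ckb rose by 1.83 ± 0.11 in WT and 1.77 ± 0.11 in KO-labelled cells, and was lower in KO-labelled cells by -0.74 ± 0.11 in GM (adjusted p = 5.17e-05) and -0.80 ± 0.10 in DM (adjusted p = 1.78e-06). Its 2 responses differed by -0.06 ± 0.15 (adjusted p = 0.856). The MEF2-type letters in the Ckb promoter printed above start 29 bases before the start site and include the run TATAAATA. Any part of these letters in the levels of Ckb was not tested.

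Ckmt2, which feeds mitochondrial ATP into phosphocreatine, was scarce. It had 13, 15 and 13 counts in WT DM, 0, 1 and 6 in WT GM, 3, 2 and 2 in KO DM and 0, 1 and 0 in KO GM. Every WT DM library thus stood above all others, and the WT GM and KO DM libraries overlapped. The rise in WT cells was called at 2.52 ± 0.67 (adjusted p = 0.00521, and 4.48 without WT GM replicate 3) and the lower level in KO DM at -2.62 ± 0.67 (adjusted p = 0.00418). The change in KO-labelled cells was not called (2.44 ± 1.3, adjusted p = 0.144), nor was the difference in GM (-2.54 ± 1.3, adjusted p = 0.183), which rests on 7 counts against 1 and was -0.58 without WT GM replicate 3. The other mitochondrial creatine kinase gene, Ckmt1, had 0 counts in every library.

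Per kilobase of coding sequence, the scale on which different genes can be set side by side, the creatine kinase pool was mostly Ckb in every group. Ckm made up 7.82 ± 2.18% of creatine kinase transcripts in WT GM and 17.9 ± 1.70% in WT DM, with single libraries at 5.48 to 9.81% and 15.9 to 18.9%. In KO-labelled cells its share was 1.54 ± 0.829% in GM and 7.50 ± 0.309% in DM. The share in KO DM lay inside the range of WT GM and below every WT DM library. On transcript length in place of coding length the share in WT DM was 10.5%.

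Mb encodes myoglobin. It was at 196, 159 and 154 CPM in WT DM, 60.0, 47.6 and 60.4 in KO DM, 14.4, 13.9 and 36.9 in WT GM and 3.76, 1.39 and 4.26 in KO GM. The groups did not overlap, although WT GM replicate 3 held more than 2 times the level of the other WT GM libraries. Mb rose by 2.95 ± 0.37 in WT cells (adjusted p = 3.04e-04) and by 4.17 ± 0.49 in KO-labelled cells. It was lower in KO-labelled cells by -2.82 ± 0.53 in GM (adjusted p = 0.00614) and -1.60 ± 0.33 in DM (adjusted p = 0.00682), and the responses differed by 1.22 ± 0.65 (adjusted p = 0.31). Without WT GM replicate 3 the rise in WT was 3.58, the difference in GM -2.20 and the difference between responses 0.62. An antisense gene that overlaps Mb, Gm49540, moved with it at 11.8 to 18.8% of the Mb count in each library. The strand setting of the counting is not given in the sources used here, so reads of this pair cannot be told apart.

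Pygm, the muscle glycogen phosphorylase whose loss causes McArdle disease in people, was at 51.8, 57.3 and 55.5 CPM in WT DM, 15.5, 14.8 and 14.8 in KO DM, 5.45, 5.37 and 10.3 in WT GM and 1.07, 0.52 and 2.39 in KO GM. These groups were apart as well. Pygm rose by 2.96 ± 0.24 in WT and 3.48 ± 0.33 in KO-labelled cells and was lower in KO-labelled cells by -2.39 ± 0.37 in GM (adjusted p = 3.3e-04) and -1.87 ± 0.21 in DM. The responses differed by 0.52 ± 0.44 (adjusted p = 0.527), which became 1.33 and was called without KO GM replicate 3 (adjusted p = 0.0416). Without that library the rise in KO-labelled cells was 4.27 and the difference in GM -3.18.

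The brain form of glycogen phosphorylase, Pygb, was at 66.0 to 81.1 CPM in all 12 libraries and was called in none of the comparisons. The share of Pygm among phosphorylase transcripts, per coding length, therefore followed Pygm alone: 9.22 ± 3.17% in WT GM, 42.1 ± 1.82% in WT DM, 1.78 ± 1.23% in KO GM and 17.0 ± 0.459% in KO DM. The liver form, Pygl, had less than 2 CPM in every library.

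Pfkm, the muscle phosphofructokinase that sets the pace of glycolysis, did not follow the pattern of the genes above. Its level was 213, 216 and 214 CPM in WT DM, 116, 114 and 110.3 in KO DM, 76.3, 80.7 and 89.1 in WT GM and 79.1, 75.5 and 85.7 in KO GM. The GM groups overlapped, and both DM groups lay above them and apart from each other. Pfkm rose by 1.38 ± 0.07 in WT and by 0.50 ± 0.07 in KO-labelled cells. The labels differed by -0.04 ± 0.07 in GM (adjusted p = 0.799) and by -0.92 ± 0.07 in DM. The smaller response of the KO-labelled cells was called as such, at -0.89 ± 0.10 (adjusted p = 1.36e-05), in all 22 alternative analyses too.

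The liver form Pfkl and the platelet form Pfkp did not rise with it. Pfkl fell in DM by -0.26 ± 0.08 in WT and -0.40 ± 0.08 in KO-labelled cells, the former not called without WT DM replicate 2 (adjusted p = 0.0572). Pfkp was at -0.02 ± 0.08 in WT (adjusted p = 0.881) and fell by -0.81 ± 0.09 in KO-labelled cells, from 95.9 ± 3.25 to 54.6 ± 4.83 CPM. Its responses differed by -0.79 ± 0.12 (adjusted p = 2.43e-04). Among phosphofructokinase transcripts the share of Pfkm was 13.9 ± 0.822% in WT GM and 13.3 ± 0.802% in KO GM, and 32.8 ± 1.31% in WT DM and 23.2 ± 1.10% in KO DM. Summed over the 3 genes, the family stood at 654 ± 22.7 CPM in WT DM and 489.7 ± 33.1 in KO DM. Pfkm overlaps Senp1, which lies on the opposite strand and held 401 to 671 counts per library.

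Eno3, the muscle enolase, was the most abundant of the 9 per coding length in every group and had the smallest change with DM in both genotypes and between labels in DM. It stood at 698, 680 and 678 CPM in WT DM, 572, 515 and 521 in KO DM, 599, 550.1 and 499 in WT GM and 634, 585 and 497 in KO GM. WT DM lay above the other 3 groups, which overlapped one another. Eno3 rose by 0.32 ± 0.08 in WT cells (adjusted p = 0.00546), was at -0.09 ± 0.08 in KO-labelled cells (adjusted p = 0.411) and was lower in KO DM than in WT DM by -0.35 ± 0.08 (adjusted p = 0.00266). The responses differed by -0.41 ± 0.12 (adjusted p = 0.034), a call lost in 13 of 22 alternative analyses, with adjusted p of 0.0017 to 0.123. Without both GM replicate 3 libraries Eno3 fell in KO-labelled cells (-0.16, adjusted p = 0.0452).

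The housekeeping enolase Eno1 fell in DM by -0.28 ± 0.08 in WT and -0.65 ± 0.08 in KO-labelled cells, a difference of -0.38 ± 0.11 (adjusted p = 0.0338) that was not called when any of several single libraries was left out (-0.27 and adjusted p = 0.129 without KO DM replicate 3). The share of Eno3 among Eno1, Eno2 and Eno3 transcripts was 20.5 ± 0.752% in WT GM and 28.0 ± 0.821% in WT DM, and 19.3 ± 2.24% and 26.1 ± 1.79% in the KO-labelled groups. In both genotypes the shares in GM and DM did not overlap between libraries. Eno1b, a near-identical copy of Eno1, held 25.4 to 27.6% of the Eno1 count in each library, so the split of reads between these 2 is uncertain. Eno1b was left out of the enolase share, and counting it would lower the share of Eno3 in every group.

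Pgam2, the muscle phosphoglycerate mutase, was at 9.33, 9.91 and 11.1 CPM in WT DM, 3.04, 2.61 and 3.34 in KO DM, 2.26, 1.61 and 3.99 in WT GM and 0.966, 1.04 and 1.77 in KO GM. WT DM was apart from the rest, and the KO DM libraries lay inside the range of WT GM. Pgam2 rose by 1.93 ± 0.27 in WT and by 1.23 ± 0.33 in KO-labelled cells (adjusted p = 0.00508), and was lower in KO DM by -1.75 ± 0.26. The difference in GM, -1.05 ± 0.34 (adjusted p = 0.0329), was not called in 6 of 17 alternative analyses. Adjusted p was 0.084 with limma-voom, 0.116 with only the groups compared, 0.0925 without both GM replicate 3 libraries, 0.247 without WT GM replicate 3 (-0.61), 0.108 without KO GM replicate 1 and 0.116 without KO GM replicate 2, over a range of 0.0115 to 0.247. The housekeeping form Pgam1 was at 856 to 1546 CPM, so that Pgam2 reached 0.937 ± 0.0729% of mutase transcripts in WT DM and 0.330 ± 0.0564% in KO DM per coding length, and 1.95% and 0.691% per transcript length. Pgam1 fell in DM in both genotypes, by -0.19 ± 0.07 and -0.71 ± 0.07, and these responses differed by -0.52 ± 0.10 (adjusted p = 0.00188). The WT fall of Pgam1 lost its call with WT GM replicate 3 left out (-0.14, adjusted p = 0.122) and with any 1 of the WT DM libraries left out.

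Ampd1, the muscle AMP deaminase, was near the limit of detection. WT DM libraries had 3, 5 and 1 counts and WT GM libraries 1, 0 and 0. KO DM libraries had 0, 1 and 0 and KO GM libraries none. The 9 counts over WT DM correspond to 0.316 CPM with an exact 95% Poisson interval of 0.144 to 0.6, for counting error only. The 0 counts over KO GM allow up to 0.0934 CPM taking 3 counts as the limit, and up to 0.115 CPM as the upper end of the same exact interval. The other AMP deaminases were present at 67.0 to 86.7 CPM (Ampd2) and 33.0 to 56.2 CPM (Ampd3) per library. Ampd3 was lower in KO-labelled cells in GM (-0.31 ± 0.09, adjusted p = 0.0602 without KO GM replicate 1) and in DM (-0.56 ± 0.09, adjusted p = 5.52e-05). The promoter table held no entry for Ampd1.

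Pdk4, the kinase that turns off pyruvate oxidation, was the exception among the 9. It was at 24.8, 27.7 and 28.2 CPM in KO DM, 13.1, 15.2 and 12.2 in WT DM, 8.16, 9.10 and 8.96 in KO GM and 6.27, 8.06 and 10.2 in WT GM. The KO DM libraries lay above all others, WT DM above both GM groups, and the GM groups overlapped. Pdk4 rose by 0.72 ± 0.16 in WT (adjusted p = 0.00135) and by 1.62 ± 0.15 in KO-labelled cells. In DM it was higher in KO-labelled cells by 1.00 ± 0.15 (adjusted p = 1.5e-05), or 1.99-fold, while in GM the labels differed by 0.10 ± 0.17 (adjusted p = 0.746). The larger response of the KO-labelled cells was called, at 0.90 ± 0.22 (adjusted p = 0.0139).

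Of the other kinases of pyruvate dehydrogenase, Pdk2 also rose in KO-labelled cells (0.73 ± 0.14) and was higher in KO DM than in WT DM (0.39 ± 0.14, adjusted p = 0.034), a call lost without WT DM replicate 1 (0.31, adjusted p = 0.139), WT DM replicate 2, KO DM replicate 1 or KO DM replicate 2. Its responses were not called different (0.41 ± 0.20, adjusted p = 0.213), but were without KO GM replicate 3 (0.65, adjusted p = 0.0151). Pdk1, a target of hypoxia signalling, fell in DM in WT (-0.31 ± 0.08) and KO-labelled cells (-0.62 ± 0.08), and Pdk3 was called in none of the 5 comparisons with all libraries. Pdk4 made up 3.71 ± 0.475% of these transcripts in WT GM, 3.33 ± 0.205% in KO GM, 6.88 ± 0.913% in WT DM and 12.2 ± 1.12% in KO DM. Pdk1 remained the largest part in each group on this scale, at 58.9 ± 0.228% in KO DM.

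**Figure D3:**
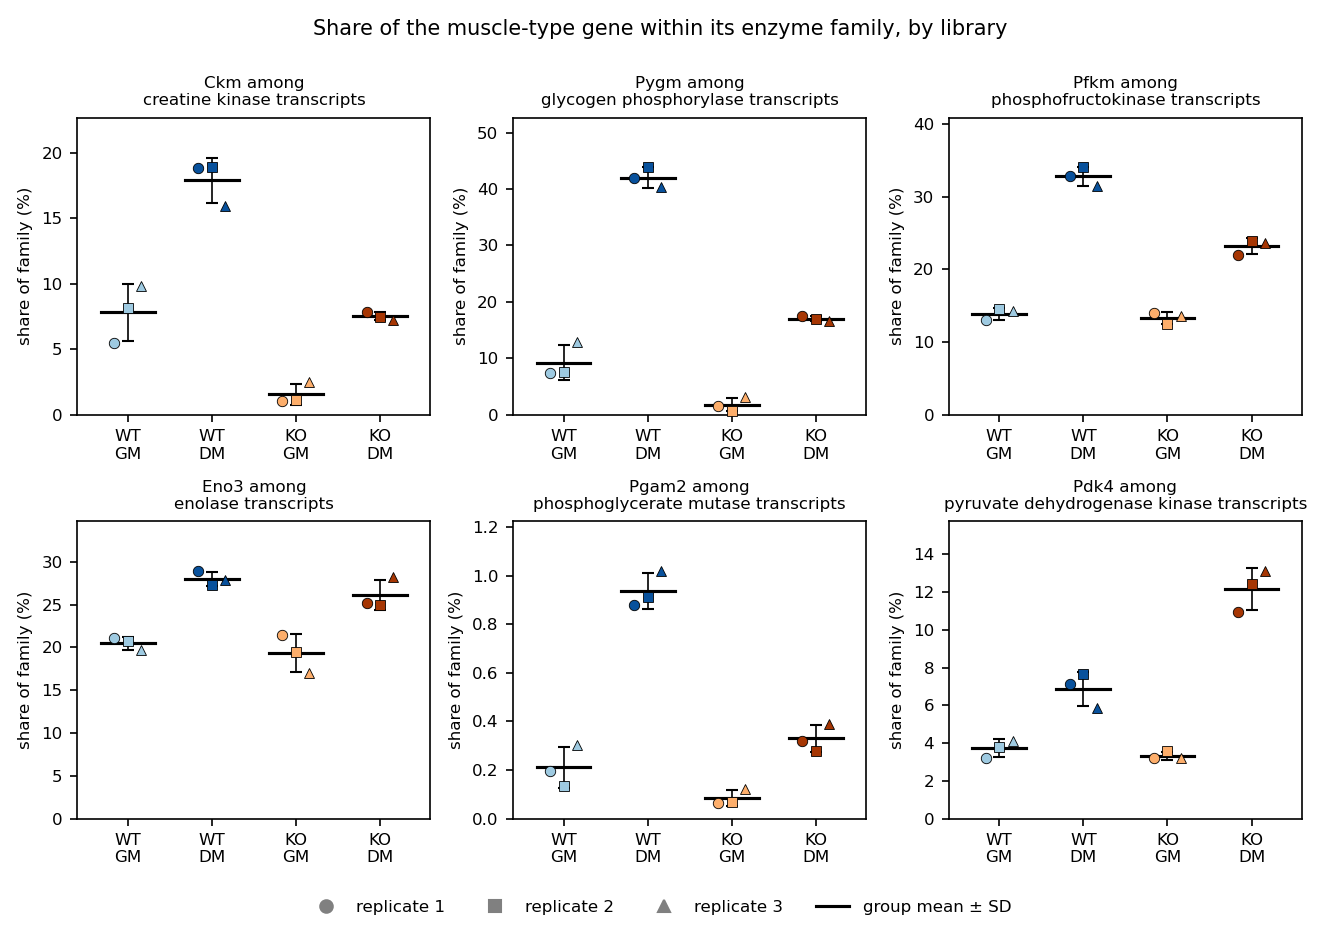
Share of the muscle-type gene among the transcripts of its enzyme family (y axis, percent, counts per coding length) in each library, with group mean ± SD. Ckm, Pygm, Pfkm and Pgam2 reach their largest share in WT DM and Pdk4 in KO DM. The Eno3 share, with Eno1b left out of the family, is close in both DM groups (28.0 and 26.1%).

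Levels per kilobase of coding sequence put the members in a different order in each group. In WT DM they ran from Eno3 (526 ± 8.41 CPM per kb) through Mb (367 ± 49.3), Ckb (125 ± 12.7), Pfkm (91.5 ± 0.741), Ckm (27.3 ± 0.997), Pygm (21.7 ± 1.10), Pgam2 (13.3 ± 1.17) and Pdk4 (10.9 ± 1.26) to Ckmt2 (1.15 ± 0.101). In KO GM Eno3 was again first (439 ± 53.3), Mb stood at 6.78 ± 3.32, beside Pdk4 at 7.07 ± 0.41, and Ckm at 0.345 ± 0.239 stood below Pygm at 0.526 ± 0.381. The last 2 pairs did not differ beyond their spread.

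Among the members the profiles over the 12 libraries (log2 CPM, prior count 2) were closest for Ckm and Pygm (Pearson r = 0.992), Pygm and Mb (0.991) and Ckm and Mb (0.98). They were farthest from the others for Eno3 (r = 0.423 with Ckm) and Pdk4 (0.478 with Ckm, -0.162 with Eno3). These are descriptions over 12 libraries that fall into 4 groups, so they mostly restate the group means. Of 13221 other genes searched, those most like Ckm were Atp2a1, the fast muscle calcium pump (r = 0.997), Tnni2, fast troponin I (0.997), Ptgis, prostacyclin synthase (0.996), Neurl1a (0.995) and Myom3, a myomesin (0.994). Atp2a1 was at 245 ± 2.66 CPM in WT DM, 75.4 ± 6.08 in KO DM, 46.3 ± 6.80 in WT GM and 10.7 ± 2.69 in KO GM. The genes most like Ckb were Chrna1, a subunit of the muscle acetylcholine receptor (0.991), Pgm5 (0.99) and Obsl1, a cytoskeletal linker (0.987). Those most like Pdk4 were Maoa, monoamine oxidase A (0.98), Ptpra, a receptor phosphatase (0.978), and Elmo1 (0.974), which stood at 69.0 ± 4.70 CPM in KO DM and 9.71 to 23.3 in the means of the other groups.

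The pathways around the members were counted from lists of other fuel genes. Creatine itself is made by Gatm and Gamt and imported by Slc6a8. Gatm, the first enzyme of creatine synthesis, was far lower in KO-labelled cells, at 7.85 ± 1.11 CPM against 69.0 ± 7.94 in GM (-3.14 ± 0.13, adjusted p = 6.39e-14) and 11.7 ± 2.07 against 111 ± 4.78 in DM (-3.24 ± 0.12, adjusted p = 1.14e-14). Gamt was lower too, by -0.37 ± 0.12 in GM (adjusted p = 0.034, and 0.159 without KO GM replicate 2) and -0.62 ± 0.11 in DM. Gatm and Gamt rose in DM in WT cells (0.68 ± 0.10 and 0.97 ± 0.11) and in KO-labelled cells (0.57 ± 0.15 and 0.72 ± 0.12). Slc6a8 was at 117 to 148 CPM in the group means and was not called between genotypes (adjusted p = 0.16 in GM and 0.252 in DM). Of the 8 genes of creatine supply and the adenylate kinases 4 were lower in KO GM, and 4 were lower and 1 higher in KO DM. Over all tested genes 10.6% were lower in KO GM, and 17.4% were lower and 13.6% higher in KO DM. The adenylate kinase gene Ak4 fell in DM more in KO-labelled cells, by -1.18 ± 0.11 against -0.45 ± 0.10 (difference -0.73 ± 0.15, adjusted p = 0.00305).

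Glycogen genes other than Pygm moved both ways. Of 17 tested, 5 rose and 2 fell in WT DM and 5 rose and 5 fell in KO DM. Over all tested genes 18.4% rose and 14.8% fell in WT DM, and 20.8% rose and 19.8% fell in KO DM. Phka2, a regulatory subunit of phosphorylase kinase, rose by 1.28 ± 0.15 in WT and 1.23 ± 0.16 in KO-labelled cells. Gbe1, the branching enzyme, fell by -1.02 ± 0.10 and -1.98 ± 0.10, a difference of -0.97 ± 0.15 (adjusted p = 2.39e-04). Stbd1, a glycogen-binding protein, was lower in KO-labelled cells in GM (-0.94 ± 0.10) and DM (-1.01 ± 0.10).

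Of the 16 tested glycolysis genes outside the members 10 fell in DM in WT cells and 11 in KO-labelled cells. The shares that fell over all tested genes were 14.8% and 19.8%. Lactate dehydrogenase A (Ldha) fell by -0.52 ± 0.07 and -0.80 ± 0.07 and triose phosphate isomerase (Tpi1) by -0.46 ± 0.07 and -0.69 ± 0.07. The mitochondrial glycerol phosphate dehydrogenase gene Gpd2 fell by -1.38 ± 0.10 and -1.95 ± 0.11. By the test of the difference the response was more negative in KO-labelled cells for 6 of the 16, and for 5.25% of all tested genes. Among the 6 were Pgk1, phosphoglycerate kinase (-0.53 ± 0.10), and Gpi1, glucose phosphate isomerase (-0.50 ± 0.10). Gpi1 was not called in WT (0.04 ± 0.07, adjusted p = 0.744) and fell in KO-labelled cells (-0.47 ± 0.07). Ldhb, the heart-type lactate dehydrogenase, was lower in KO-labelled cells in GM (-2.25 ± 0.24) and DM (-2.20 ± 0.23). The glucose transporter gene Slc2a1 fell in DM by -1.01 ± 0.09 and -1.24 ± 0.09, and Slc16a7, a monocarboxylate transporter, was higher in KO-labelled cells, at 4.55 ± 1.03 against 0.583 ± 0.1 CPM in GM and 5.42 ± 0.835 against 0.575 ± 0.359 in DM.

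Of the 10 genes of pyruvate dehydrogenase and pyruvate entry 4 rose in WT DM and 6 in KO DM. The shares that rose over all tested genes were 18.4% and 20.8%. Mpc1, a pyruvate carrier subunit, rose by 0.41 ± 0.08 and 0.32 ± 0.08. Pdp2, a phosphatase that reactivates pyruvate dehydrogenase, rose by 0.78 ± 0.23 in KO-labelled cells (adjusted p = 0.0099), a call lost without KO DM replicate 3 (0.58, adjusted p = 0.0868). Among 18 tested genes of fatty acid uptake and oxidation 5 rose and 4 fell in WT DM, and 10 rose and 1 fell in KO DM. Over all tested genes 18.4% rose and 14.8% fell in WT DM, and 20.8% rose and 19.8% fell in KO DM. Fabp3, the fatty acid binding protein of muscle and heart, rose by 2.99 ± 0.31 and 2.38 ± 0.36 and was lower in KO DM than WT DM (-1.48 ± 0.26). Cd36, a fatty acid transporter, had 178 counts over WT DM and 27 over WT GM and 0 in all KO-labelled libraries. Taking 3 counts over the group as the floor, Cd36 was at least 65.3-fold lower in DM and 9.95-fold lower in GM. Acsl1 went the other way in DM, at 0.72 ± 0.16 for KO-labelled cells against WT (adjusted p = 0.0017). Of the 18, the KO label in DM had 5 called up and 5 called down, with a median log2 fold change of 0.03. The shares of all tested genes were 13.6% and 17.4%. By the test of the difference, the response was more positive in KO-labelled cells for 3 of the 18 and less positive for 1. Next to Ampd1, 3 of 12 tested genes of the purine nucleotide cycle and AMP sensing rose and 1 fell (Prkag1, -0.22 ± 0.08, a call lost without WT GM replicate 1, WT DM replicate 2 or WT DM replicate 3) in WT DM, where 33.2% of all genes were called. The largest rise was that of Prkag3, the muscle subunit of AMP-activated kinase, by 3.57 ± 0.27. Prkag3 also rose in KO-labelled cells (3.41 ± 0.32) and was lower in KO DM (-1.24 ± 0.22, adjusted p = 2.68e-04).

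**Figure D4:**
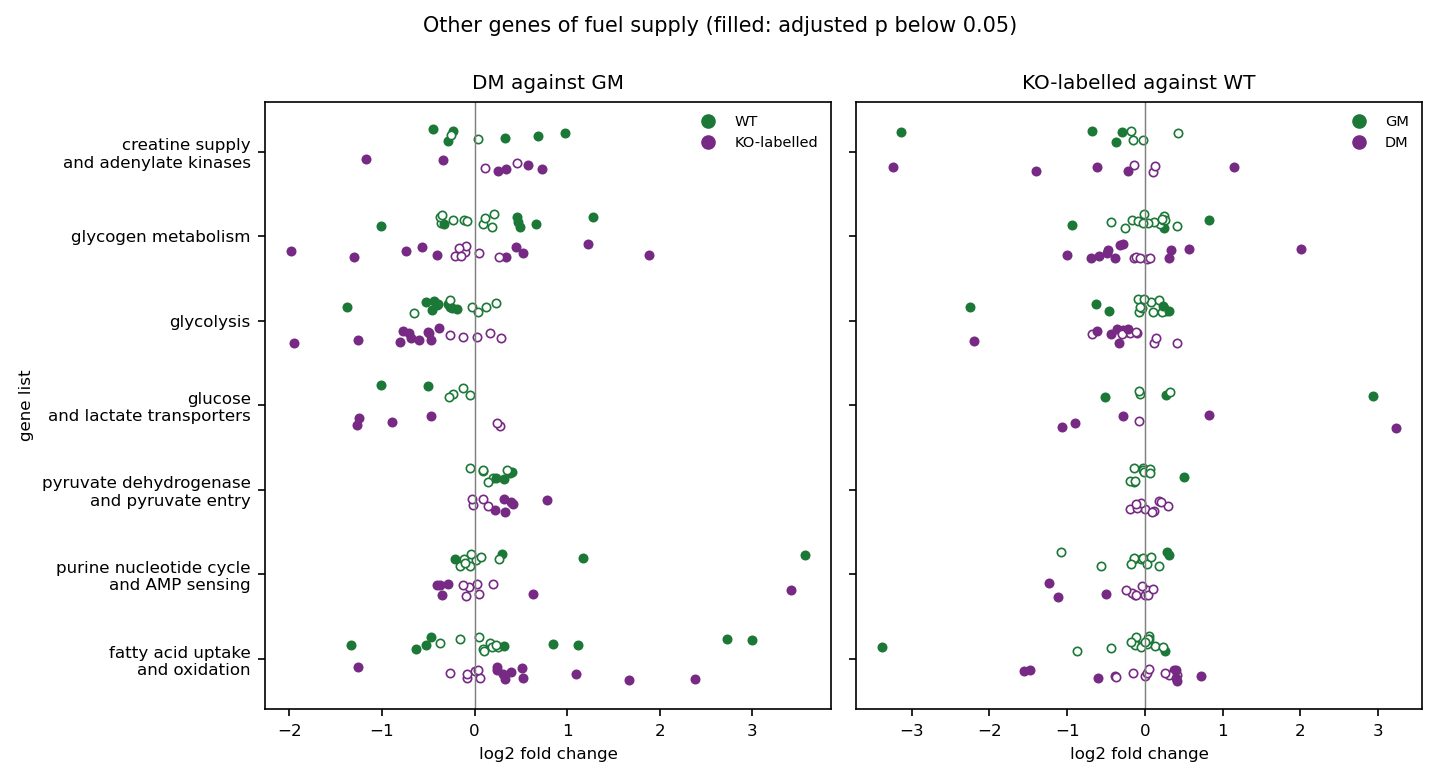
Log2 fold changes (x axis) of the tested genes of 7 fuel lists (rows, 1 point per gene, members left out, spread vertically for visibility) for DM against GM (left, by genotype label) and KO-labelled against WT (right, by medium); filled points have adjusted p below 0.05, and genes with 0 counts in a group are not drawn. The glycolysis points that are filled in the left panel all lie left of 0.

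Regulators of muscle fuel genes were read in the same libraries. Of 14 tested, 8 rose and 1 fell in WT DM, and 7 rose and 2 fell in KO DM. Over all tested genes 18.4% rose and 14.8% fell in WT DM, and 20.8% rose and 19.8% fell in KO DM. In KO against WT, 2 were higher and 4 lower in GM, and 1 higher and 6 lower in DM. Over all tested genes those shares were 10% and 10.6%, and 13.6% and 17.4%. Whether any regulator sets the levels of the members was not tested. Myog was at 615 ± 37.3 CPM in WT DM, 299 ± 15 in KO DM, 163 ± 49.5 in WT GM and 31.4 ± 14.6 in KO GM. Its group order was that of Ckm and of the summed skeletal muscle markers, which include Myog. Mef2c, a factor of the MEF2 family, was at 75.1 ± 8.30 CPM in WT DM and 1.18 ± 0.558 in KO DM, while Mef2a was at 243 ± 4.73 and 248 ± 9.70 (0.03 ± 0.09, adjusted p = 0.856). Ppard, a nuclear receptor, fell in DM in both genotypes (-0.77 ± 0.10 and -1.12 ± 0.10), was higher in KO-labelled cells in GM (0.45 ± 0.10) and differed by 0.10 ± 0.10 in DM (adjusted p = 0.507).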

How the data were processed

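RNA of C2C12 cells was sequenced as paired 150 bp reads from total RNA, per the labels' protocols. The authors deposited a table of whole-number counts per gene for 12 libraries. The build was GRCm39, and DESeq2 1.40.2, R 4.3.1, RSEM 1.3.3 and STAR 2.7.1a were used, in roles that are not stated, per the submitters' processing notes. They do not give the annotation release or how strand was treated. 4 empty columns were not used. The members and lists were chosen with earlier results of these data known.

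Genes were filtered with filterByExpr over the 4 groups, which left 13250 genes holding 99.9% of counts, 20 of them without a symbol. With edgeR 4.0.16 in R 4.3.3, TMM factors and a robust quasi-likelihood fit over all 12 libraries were used, with 5 2-sided contrasts and Benjamini-Hochberg adjustment over all genes. The SE of a log2 fold change is its size divided by the square root of F. At few counts this can be too small, as for the difference in response of Ckmt2. The fit was tested on simulated data. Coding and transcript lengths came from a GENCODE gene annotation separate from the submitters' files. It may differ from the annotation used for counting. Alternatives were other scalings, DESeq2 1.42.0, limma-voom (limma 3.58.1), other filters, a fit without robust estimation, only the groups compared, a replicate block and leaving out libraries; isoform shares per transcript length were added after seeing the data. Named genes are the members, Mapk14, their paralogs, of each other list up to 4 called genes per comparison by size of change (or the 2 with the highest CPM where none is called), and the genes most like Ckm, Ckb and Pdk4. A total of 3 counts, the limit of detection used, corresponded to 0.26 to 0.346 CPM per library. Read counts carry no molecular identifiers, so intervals cover counting error only. The p-values set each difference against the spread between these libraries. They do not cover variation between KO clones, whose number is not given. Replicates differed by more than sampling noise, so no library was counted as a copy of another. Protein sequences were not used here.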

Additional observations from a re-analysis of the deposited data

Results flagged for a closer look

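For 3 members the response to DM differed between the genotype labels by the test of that difference (edgeR's quasi-likelihood test, Benjamini-Hochberg adjusted). It was -0.89 for Pfkm (adjusted p = 1.36e-05), -0.41 for Eno3 (adjusted p = 0.034, a call lost in 13 of 22 alternatives) and 0.90 for Pdk4 (adjusted p = 0.0139), each as the log2 fold change for KO-labelled cells less the one for WT. For 3 of their paralogs it differed as well, by -0.79 for Pfkp (adjusted p = 2.43e-04), -0.38 for Eno1 (adjusted p = 0.0338, lost when any of several single libraries was left out) and -0.52 for Pgam1 (adjusted p = 0.00188).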

How the results depend on the processing

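For the 9 tested members, 787 of 808 values under the alternatives kept their side of the threshold, 19 lost a call, 2 gained one and 0 reversed a called direction. For the other named genes 4035 of 4282 kept it, 221 lost a call and 26 gained one. Values that were not called could change sign and still count as kept. Pfkm in KO GM against WT GM was at -0.04 with all libraries and at 0.02 without WT GM replicate 3. With upper-quartile factors, total counts alone or no robust estimation, 1 member (Pfkm) was called less positive for the difference in response. With only the groups compared, 864 genes were called higher in KO GM. Without both GM replicate 3 libraries, 1 member (Eno3) fell in KO-labelled cells, and 1373 genes were called more positive and 1336 less positive for the difference in response. Leaving out 1 library at a time gave 293 to 969 genes more positive and 400 to 951 less positive there, with 1 to 2 members more positive and 1 to 2 less positive; the lowest gene counts were without WT DM replicate 2 and the highest without KO GM replicate 3. The cause was not tested.

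Deviations of same-numbered libraries from their group means had r from -0.085 to 0.186, the highest for the third GM libraries of the 2 genotypes, and not every pair was above 0.1, so replicate numbers were not taken as pairs. With the replicate block, the calls numbered 2624 upward and 2162 downward for WT DM, 2887 and 2792 in KO DM, 1557 and 1573 in KO GM against WT GM, and 1974 and 2520 in KO DM against WT DM, and 666 and 921 differed in response; the counts of members called were those without it. Depth limits Ckmt2 and Ampd1, which had at most 15 counts in any library.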
